A study of Mus musculus with 9 samples.

Results

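The 46 genes described here encode the machinery that copies DNA, the enzymes that supply its building blocks and the kinase that starts S phase. They were chosen by gene symbol from a list of replication, nucleotide supply and G1/S genes, and all 46 were found among the 15768 genes of the expression table. Expression was measured by RNA sequencing in cultured mouse tumour cells and deposited by the authors as FPKM, fragments per kilobase of transcript and per unit of library depth, which can be compared between genes because it is per length. The 3 lines compared had 3 libraries each. SCC2 and SCC1 are subclones of the Lewis lung carcinoma line LLC1, each grown from a single cell by limiting dilution and passaged 5 to 8 times. LLC1 is the uncloned parental line. All 9 libraries came from untreated cells labelled with a WT genotype and kept in DMEM with 10% fetal bovine serum and antibiotics at 37 °C and 5% CO2. Each subclone is 1 clone, so a difference between lines is a difference between those clones and the parental culture. The title of the series sets the growth of the subclones in animals against their intrinsic proliferative ability, and no tumours are among the samples analysed here.

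Before S phase, the origin recognition complex, Cdc6 and Cdt1 load the Mcm2-7 helicase onto DNA, which licenses each origin to fire. Cyclin E bound to Cdk2 then helps convert the loaded helicase into an active one together with Cdc45 and the GINS complex, and primase, polymerases, the Pcna clamp and its loader build the new strands. Many of these genes are activated together in late G1 by E2F transcription factors once the retinoblastoma protein is phosphorylated, and tumour cell lines that cycle continuously express them at high levels. In RNA from a whole culture, a larger share of cells in S phase and more transcript per cell cannot be told apart.

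The members were abundant and steady between libraries of a line. The median member had a mean of 32.6 FPKM in SCC2, 29.3 FPKM in SCC1 and 27.6 FPKM in LLC1, where the median of all 10519 tested genes was 11.8 FPKM. Within LLC1 the lowest was the origin recognition subunit Orc1 at 4.36 FPKM and the highest was Pcna at 200.5 FPKM. The median coefficient of variation over the 3 libraries of a line was 1.81% in SCC2, 1.98% in SCC1 and 2.07% in LLC1. Between 17094808 and 19398657 fragments per library could be recovered from the steps in the FPKM values, and a member had 182 to 9047 of them in a library. The summed FPKM of the 46 genes was 2130 to 2135 in SCC2, 2226 to 2237 in SCC1 and 1946 to 1955 in LLC1, so the 3 lines did not overlap in this sum.

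Against the label of the cells, lung epithelial genes were close to 0. The surfactant gene Sftpc and the lung transcription factor Nkx2-1 summed to at most 0.014 FPKM in SCC2, 0.0641 FPKM in SCC1 and 0.0665 FPKM in LLC1. The other 4 of the 6 genes on that list were not analysed here. Markers of other cells that a culture could hold were also summed. The 3 of 4 endothelial markers with values reached at most 0.0137 FPKM in SCC2, 0.0295 FPKM in SCC1 and 0.0272 FPKM in LLC1, the 2 of 6 lymphocyte markers at most 0.166 FPKM in SCC2, 0.218 FPKM in SCC1 and 0.318 FPKM in LLC1, and the red cell marker Alas2 at most 0.0796 FPKM in SCC2, 0 in SCC1 and 0.029 FPKM in LLC1. The 6 of 9 macrophage and leukocyte markers with values summed to 18.8 to 19.4 FPKM in SCC2, 29.2 to 33.3 FPKM in SCC1 and 15.9 to 17.4 FPKM in LLC1, and were highest in SCC1. Ptprc, Adgre1 and Itgam, the rest of that list, had no values. Among all tested genes, 39.2% were called higher in SCC1 than in LLC1. Of the 4 markers that were tested, Cd68, Mrc1, Cd14 and Ly6g, all were called higher in SCC1 than in LLC1. Mrc1, for example, had 0.214 to 0.272 FPKM in SCC2, 1.90 to 2.28 FPKM in SCC1 and 0.209 to 0.3 FPKM in LLC1. A gene was tested only if at least 3 libraries had at least 1 FPKM. For Mrc1 and Ly6g only SCC1 libraries did, so the direction of these calls was partly set by that choice. Cd68 and Cd14 were above 1 FPKM in every library, so their calls do not depend on it. Csf1r was at most 0.0266 FPKM and Lyz2 at most 0.253 FPKM in any library. The 4 fibroblast markers, all of them matrix or stromal genes that carcinoma lines can express, summed to 692 to 714 FPKM in SCC2, 258 to 268 FPKM in SCC1 and 571 to 597 FPKM in LLC1. Nearly all of this sum was Col3a1, and in SCC2 the other tested genes of the list, Pdgfra (log2 change -0.61) and Dcn (-0.37), were called lower than in LLC1. These sums differed between the lines, and their part in the results on replication genes was not tested.

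Promoters are shown because E2F sites near the start of transcription are the textbook link between the G1/S switch and this gene group. RefSeq promoter windows on GRCm38.p6, running from 250 bases before to 50 bases after a start site, were matched by symbol for 38 of the 46 members. An exact E2F motif, searched on both strands as TTTCCCGC, TTTCGCGC, TTTGCCGC or TTTGGCGC, was found for 14 of these 38 genes (36.8%), against 432 of 8521 tested genes with a window (5.07%) and 2.6% of all genes with a window. The CCAAT box was found for 63.2% of members and 43.8% of tested genes, the GC box GGGCGG for 76.3% and 71.9%, and the CHR element TTTGAA, known from genes of the later cell cycle, for 13.2% and 14.0%. The GC box and CCAAT counts include matches on both strands, and one E2F match can overlap another. The 170 bases before the start site are printed for Mcm6, which has 3 matches, for Cdk2, which has 1, and for Mcm2, which has none, because these 3 genes moved differently in the subclones. Each reads 5′ to 3′ along the minus strand, which is the strand of all 3 genes, and capitals mark E2F motif matches.
Mcm6 at chr1:128359706-128359875: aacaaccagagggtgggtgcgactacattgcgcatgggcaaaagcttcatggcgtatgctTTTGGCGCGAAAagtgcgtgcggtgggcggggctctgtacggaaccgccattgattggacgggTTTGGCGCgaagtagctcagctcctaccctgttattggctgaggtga
Cdk2 at chr10:128705052-128705221: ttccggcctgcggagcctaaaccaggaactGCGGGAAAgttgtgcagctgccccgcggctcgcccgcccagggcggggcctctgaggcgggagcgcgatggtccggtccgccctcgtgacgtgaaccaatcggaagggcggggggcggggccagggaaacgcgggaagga
Mcm2 at chr6:88898781-88898950: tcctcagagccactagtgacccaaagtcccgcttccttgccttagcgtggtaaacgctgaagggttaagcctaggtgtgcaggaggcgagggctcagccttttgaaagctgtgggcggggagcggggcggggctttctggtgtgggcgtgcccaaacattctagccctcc
In Mcm6 the first bases of the matches lie at -110, -106 and -47 from the start site, and the first 2 share bases, and the single Cdk2 match begins at -140. The Mcm6 match at -106 and the Cdk2 match read on the strand opposite to the gene. The 14 genes with a match were Cdc6, Cdk2, Cdt1, Gins3, Lig1, Mcm3, Mcm5, Mcm6, Mcm7, Orc1, Pola1, Pold1, Pole2 and Rfc3. A match is a string of letters and was not tested as a binding site.

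Most of the replication genes were higher in each subclone than in LLC1, by small amounts. In SCC1, 35 of the 46 members were higher than in LLC1 at a limma adjusted p under 0.05, where 39.2% of all tested genes were called higher, and 3 were lower, where 30.9% were. In SCC2, 28 were higher than in LLC1, where 34.7% of all tested genes were called higher, and 7 were lower, where 32.9% were. The median member change on the log2(FPKM + 1) scale was 0.18 in SCC1 and 0.15 in SCC2, against medians over all tested genes of 0.03 and 0.0075. Both comparisons use the same LLC1 libraries, so they are not independent of each other. Calls were common in this table, with 70.1% of tested genes called in SCC1 against LLC1 and 67.6% in SCC2 against LLC1, and libraries of a line were nearly alike. The sizes were modest. In SCC1, 0 of the 46 members changed by 1.5-fold or more, where 6.54% of tested genes were called with such a change, and in SCC2 it was 1 member, the cyclin Ccne2, where 5.74% were.

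The subclones also differed from each other. In SCC2 against SCC1, where 76.3% of tested genes were called, 16 members were higher, where 37.0% of all tested genes were called higher, and 21 were lower, where 39.4% were, and the median change was -0.005. Libraries of the lines compared did not overlap for 72.3% of all tested genes in SCC1 against LLC1, 70.7% in SCC2 against LLC1 and 77.9% in SCC2 against SCC1. Among the members they did not overlap, with the subclone higher, for 35 members in SCC1 against LLC1 (40.4% of tested genes) and for 28 in SCC2 against LLC1 (36.5%). They did not overlap, with the subclone lower, for 3 members in SCC1 (31.8%) and 8 in SCC2 (34.2%). In SCC2 against SCC1, 16 members lay above without overlap (38.0%) and 21 below (39.9%).

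**Figure D1:**
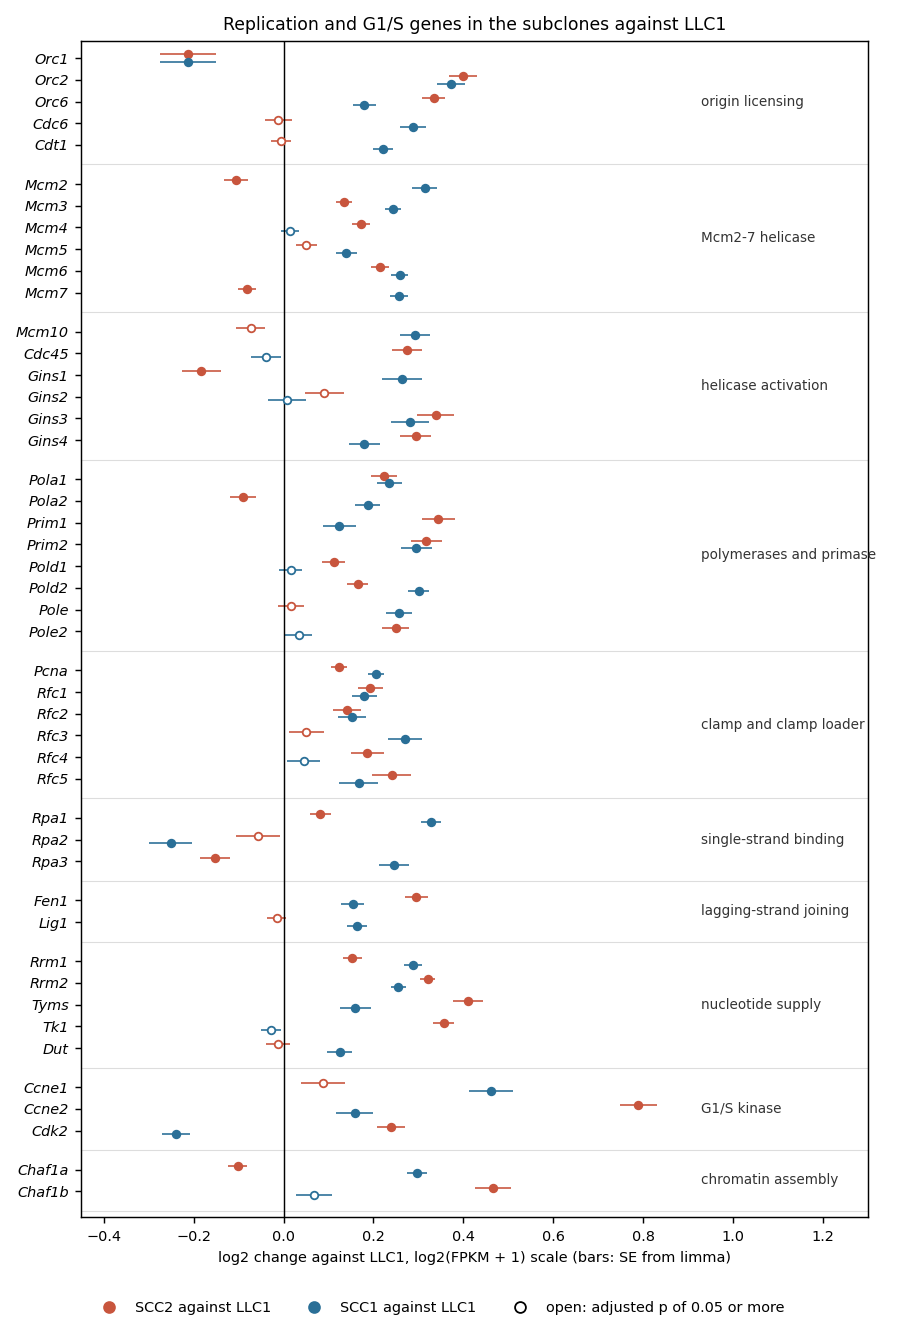
Log2 change of each of the 46 members, grouped by role, in SCC2 (red) and SCC1 (blue) against LLC1 on the log2(FPKM + 1) scale, with bars for the standard error from limma and open circles for changes that did not pass an adjusted p of 0.05. Most circles lie between 0 and 0.4 in both colours, Ccne2 in SCC2 stands apart at 0.79, and the lowest is Rpa2 in SCC1 at -0.25.

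The 3 G1/S kinase genes each differed between the subclones, in different ways. Cyclin E exists as 2 related proteins, encoded by Ccne1 and Ccne2, and both bind and activate Cdk2. Ccne1 had 12.0, 12.1 and 11.1 FPKM in the SCC2 libraries, 15.5, 16.01 and 15.0 FPKM in SCC1, and 10.5, 10.7 and 11.9 FPKM in LLC1. All SCC1 libraries lay above all others, and SCC2 overlapped LLC1. Ccne1 was higher in SCC1 than in LLC1 by 0.46 (SE 0.049, adjusted p = 5.52e-06), had a change of 0.09 in SCC2 against LLC1 that did not pass (adjusted p = 0.134), and was lower in SCC2 than in SCC1 by a log2 change of -0.37. The SCC2 change did pass when LLC1 replicate 3 was left out (0.14, adjusted p = 0.0184) and when SCC2 replicate 3 was (0.13, adjusted p = 0.0488).

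Ccne2 had 12.6, 13.4 and 13.01 FPKM in SCC2, 8.60, 7.78 and 7.79 FPKM in SCC1, and 7.21, 6.98 and 7.14 FPKM in LLC1. The 3 lines did not overlap, with SCC2 highest and LLC1 lowest. Its mean FPKM in SCC2 was 1.83 times that in LLC1. On the log2(FPKM + 1) scale, its change in SCC2 against LLC1 was 0.79 (SE 0.041, adjusted p = 1.47e-08). Its change in SCC1 against LLC1 on that scale was 0.16 (adjusted p = 0.00449). An exon of Ints8 on the opposite strand overlaps Ccne2, and it is not known whether counting used strand. The ratio of Ccne1 to Ccne2 within a library, chosen for description after the values were seen, was 0.85 to 0.951 in SCC2, 1.80 to 2.06 in SCC1 and 1.45 to 1.66 in LLC1. Ccne2 was thus the more abundant cyclin E transcript per length in SCC2, and Ccne1 was in the other two lines. For this ratio each pair of lines separated fully (exact two-sided permutation p = 0.1, the smallest that 3 against 3 allows, and 0.109 adjusted over 12 ratio comparisons).

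Cdk2, the catalytic partner, had 26.8, 26.2 and 26.9 FPKM in SCC2, 18.2, 18.6 and 19.7 FPKM in SCC1, and 22.5, 22.8 and 21.9 FPKM in LLC1. SCC2 lay above LLC1 and SCC1 below it, with no overlap. The changes were 0.24 in SCC2 against LLC1 (SE 0.032, adjusted p = 3.6e-05), -0.24 in SCC1 against LLC1 (adjusted p = 3.31e-05) and 0.48 in SCC2 against SCC1 (adjusted p = 5.32e-08). Tested genes of chromosome 10, where Cdk2 lies, had a median change of -0.19 in SCC1 against LLC1, and with chromosome medians removed the SCC1 change of Cdk2 was -0.05 and did not pass (adjusted p = 0.229). In that setting Cdk2 changed by 0.15 in SCC2 against LLC1 (adjusted p = 0.00158) and by 0.20 in SCC2 against SCC1 (adjusted p = 0.000167). The summed FPKM of the 3 kinase genes was 51.0 to 51.8 in SCC2, 42.2 to 42.5 in SCC1 and 40.1 to 40.9 in LLC1.

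**Figure D2:**
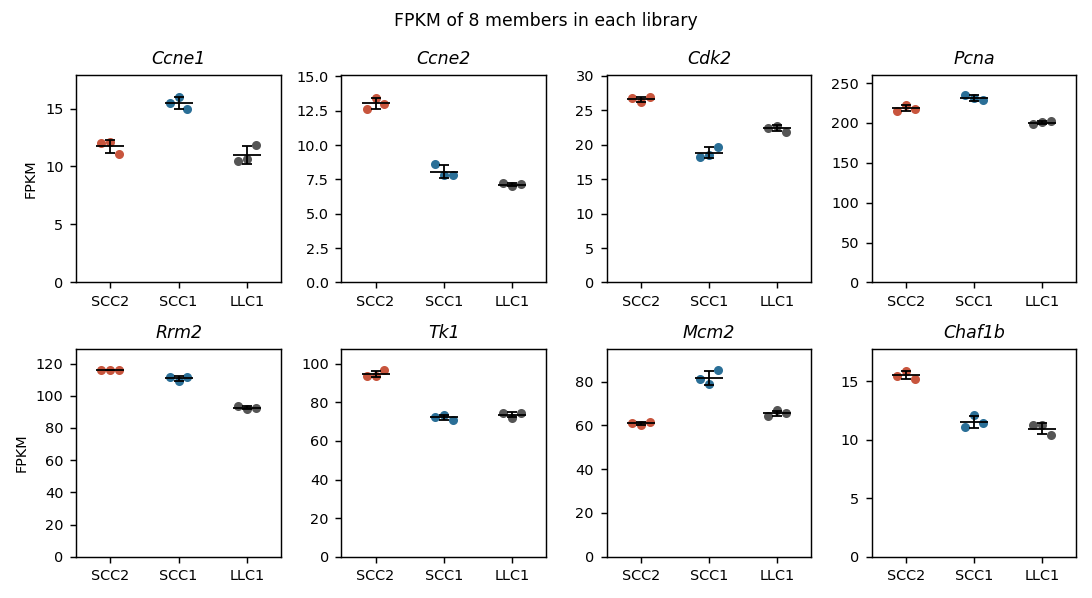
FPKM of 8 members in each library, with SCC2, SCC1 and LLC1 from left to right, points for libraries, black bars for the mean and SD of 3 libraries, and axes from 0. Ccne2, Tk1 and Chaf1b are highest in SCC2, Ccne1 and Mcm2 are highest in SCC1, and Cdk2 is highest in SCC2 and lowest in SCC1.

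Among the genes that load the helicase, Orc2 rose and Orc1 fell in each subclone. Orc2, a core subunit of the origin recognition complex, had 21.1, 20.9 and 21.2 FPKM in SCC2, 21.0, 20.8 and 20.2 FPKM in SCC1, and 15.3, 16.5 and 15.5 FPKM in LLC1. Every subclone library lay above every LLC1 library, and the subclones overlapped each other. The log2 change was 0.40 in SCC2 (SE 0.031, adjusted p = 4.46e-07) and 0.37 in SCC1 (adjusted p = 6.78e-07), both against LLC1. An exon of Nif3l1 on the opposite strand overlaps Orc2. Orc1, the subunit whose level is known to cycle in human cells, had 3.76, 3.84 and 3.27 FPKM in SCC2, 3.33, 3.86 and 3.67 FPKM in SCC1, and 4.19, 4.71 and 4.17 FPKM in LLC1. All 6 subclone libraries were below LLC1, with changes of -0.21 in SCC2 (SE 0.063, adjusted p = 0.0105) and -0.21 in SCC1 (adjusted p = 0.01), and the SCC1 change had the opposite sign, 0.12, once chromosome medians were removed.

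Of the other licensing genes, Orc6, the smallest subunit of the complex, averaged 34.5 ± 0.237 FPKM in SCC2, 30.9 ± 1.01 FPKM in SCC1 and 27.1 ± 0.205 FPKM in LLC1 (SD, n = 3 each), and was called higher in each subclone. Cdc6, the loading ATPase, averaged 10.5 ± 0.147 FPKM in SCC2, 13.2 ± 0.264 FPKM in SCC1 and 10.6 ± 0.124 FPKM in LLC1. Its loading partner Cdt1 averaged 62.1 ± 1.26 FPKM in SCC2, 72.8 ± 0.981 FPKM in SCC1 and 62.4 ± 1.12 FPKM in LLC1. Both loaders were higher in SCC1 than in LLC1 (log2 0.29 and 0.22) and lower in SCC2 than in SCC1 (-0.30 and -0.23), and neither passed in SCC2 against LLC1 (-0.01 for each). With chromosome medians removed, Cdt1 was called lower in SCC2 than in LLC1 (-0.10, adjusted p = 0.00164), and the difference of Cdc6 between SCC2 and SCC1 was -0.08.

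The 6 subunits of the Mcm2-7 helicase, which work as a ring with 1 copy of each, were not equally abundant as transcripts. In LLC1 their means ran from 65.6 FPKM for Mcm2 to 128 FPKM for Mcm3, a span of 1.95-fold, and the span was 2.31-fold in SCC2 and 2.09-fold in SCC1. In SCC1, 5 of the 6 were higher than in LLC1 and Mcm4 did not pass, whereas in SCC2 3 were higher, 2 were lower and Mcm5 did not pass. Among all tested genes, 39.2% were called higher in SCC1, and 34.7% were called higher and 32.9% lower in SCC2. Mcm2 had 61.2, 60.0 and 61.4 FPKM in SCC2, 81.3, 78.9 and 85.1 FPKM in SCC1, and 64.4, 66.8 and 65.5 FPKM in LLC1. The lines did not overlap, with SCC1 highest and SCC2 lowest. Its changes were -0.11 in SCC2 against LLC1 (SE 0.027, adjusted p = 0.00464), 0.31 in SCC1 against LLC1 (adjusted p = 9.28e-07) and -0.42 in SCC2 against SCC1 (adjusted p = 4.45e-08). With chromosome medians removed, the change in SCC2 against LLC1 was -0.0072 and did not pass, and that in SCC2 against SCC1 was -0.18.

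Mcm7 followed the same order, with means of 112 ± 2.13 FPKM in SCC2, 143 ± 2.54 FPKM in SCC1 and 119 ± 0.728 FPKM in LLC1. Exons of Ap4m1 and Cops6 on the opposite strand overlap it. Mcm4 was instead highest in SCC2, with 81.0 ± 1.36 FPKM in SCC2, 72.5 ± 0.204 FPKM in SCC1 and 71.8 ± 1.1 FPKM in LLC1, and was called higher in SCC2 than in each other line, by 0.17 against LLC1 and 0.16 against SCC1. Both changes took the opposite sign once the median of its chromosome was removed (-0.04 and -0.14). The Mcm7 to Mcm4 ratio was also chosen after the values were seen, so its separation is description only. It was 1.35 to 1.43 in SCC2, 1.94 to 2.00 in SCC1 and 1.63 to 1.70 in LLC1, with no overlap. The exact permutation p was 0.1 for each pair of lines, the smallest possible, and 0.109 adjusted over 12 ratio comparisons. Mcm3 averaged 141 ± 1.01 FPKM in SCC2, 152 ± 2.27 FPKM in SCC1 and 128 ± 1.19 FPKM in LLC1. Mcm6 averaged 97.5 ± 1.26 FPKM in SCC2, 101 ± 0.184 FPKM in SCC1 and 83.9 ± 1.56 FPKM in LLC1. Both were higher in each subclone, with log2 changes against LLC1 of 0.13 for Mcm3 and 0.21 for Mcm6 in SCC2 and of 0.24 and 0.26 in SCC1. Once chromosome medians were removed, the SCC2 change of Mcm3 was 0.00049 and did not pass (adjusted p = 0.982), and that of Mcm6 was 0.08. Mcm6 was also called lower in SCC2 than in SCC1 (-0.04), but its adjusted p of 0.0499 exceeded the threshold under other settings, among them without SCC1 replicate 1 (0.0957), SCC1 replicate 2 (0.0883), SCC1 replicate 3 (0.0997), SCC2 replicate 1 (0.126), SCC2 replicate 2 (0.14) or LLC1 replicate 2 (0.0585). Mcm5 averaged 73.9 ± 2.14 FPKM in SCC2, 78.7 ± 1.3 FPKM in SCC1 and 71.4 ± 0.839 FPKM in LLC1, and its SCC2 change against LLC1 of 0.05 passed, of the alternatives run, without SCC2 replicate 2 (0.07, adjusted p = 0.0325) and with limma-voom on recovered fragments.

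Of the 6 helicase activation genes, 2 were higher in SCC2 than in SCC1, 2 were lower and 2 did not pass. Among all tested genes, 37.0% were called higher and 39.4% lower in that comparison. Gins1, a subunit of the GINS complex that joins the helicase to Cdc45, had 11.3, 10.5 and 11.7 FPKM in SCC2, 15.4, 15.8 and 15.6 FPKM in SCC1, and 12.0, 13.1 and 13.3 FPKM in LLC1. SCC1 lay above LLC1 and SCC2 below it, with changes of -0.18 in SCC2 against LLC1 (SE 0.044, adjusted p = 0.00311), 0.26 in SCC1 against LLC1 and -0.45 in SCC2 against SCC1 (adjusted p = 1.92e-06). Cdc45, the helicase cofactor itself, had 19.8, 19.2 and 19.2 FPKM in SCC2, 15.1, 15.6 and 15.5 FPKM in SCC1, and 15.1, 16.2 and 16.4 FPKM in LLC1. SCC2 was above both other lines, which overlapped, and the change was 0.27 against LLC1 (SE 0.034, adjusted p = 2.09e-05) and 0.31 against SCC1. With the median of chromosome 16 removed, these changes of Cdc45 were 0.06 and 0.02 and did not pass.

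Gins3 averaged 8.62 ± 0.342 FPKM in SCC2, 8.25 ± 0.379 FPKM in SCC1 and 6.61 ± 0.189 FPKM in LLC1. Gins4 averaged 33.0 ± 0.469 FPKM in SCC2, 30.5 ± 1.34 FPKM in SCC1 and 26.8 ± 1.0 FPKM in LLC1. These 2 GINS subunits were called higher in each subclone than in LLC1. Gins4 was also higher in SCC2 than in SCC1 (0.11, adjusted p = 0.0111), which did not pass without SCC1 replicate 2 (0.08, adjusted p = 0.0536). Gins2, at 30.6 ± 1.75 FPKM in SCC2, 28.8 ± 1.2 FPKM in SCC1 and 28.7 ± 1.01 FPKM in LLC1, passed in none of the 3 comparisons. Its SCC2 change against LLC1 of 0.09 passed without LLC1 replicate 2 (0.12, adjusted p = 0.0492). Its change in SCC2 against SCC1 passed after quantile normalization (0.11, adjusted p = 0.047). Mcm10, which helps to activate the loaded helicase, averaged 14.5 ± 0.113 FPKM in SCC2, 19.0 ± 0.743 FPKM in SCC1 and 15.3 ± 0.418 FPKM in LLC1. It was higher in SCC1 than in LLC1 (0.29) and lower in SCC2 than in SCC1 (-0.37). Its change in SCC2 against LLC1 was -0.07 and did not pass (adjusted p = 0.0673). This change passed with median-of-ratios scaling (-0.09, adjusted p = 0.0319) and after quantile normalization (-0.08, adjusted p = 0.0475). It also passed without LLC1 replicate 1 (-0.09, adjusted p = 0.0464) and without SCC1 replicate 3 (adjusted p = 0.0437).

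Of the 8 polymerase and primase genes, 6 were higher in each subclone than in LLC1, although not the same 6. The shares of all tested genes called higher were 34.7% in SCC2 and 39.2% in SCC1. Pold2, the accessory subunit of polymerase delta, had 79.1, 80.0 and 81.5 FPKM in SCC2, 87.3, 86.5 and 90.8 FPKM in SCC1, and 73.0, 70.5 and 70.8 FPKM in LLC1. The lines did not overlap, with SCC1 highest, and the change against LLC1 was 0.17 in SCC2 (SE 0.023, adjusted p = 6.54e-05) and 0.30 in SCC1 (adjusted p = 3.94e-07). Between SCC2 and SCC1 it was -0.14, and 0.08 with chromosome medians removed. The catalytic subunit Pold1 averaged 30.5 ± 0.686 FPKM in SCC2, 28.4 ± 0.46 FPKM in SCC1 and 28.1 ± 0.418 FPKM in LLC1, and was called higher in SCC2 only (0.11), with 0.02 in SCC1 against LLC1 and 0.10 in SCC2 against SCC1, which passed (adjusted p = 0.00474).

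The 2 members that encode subunits of polymerase epsilon, which copies the leading strand, went opposite ways between the subclones. The catalytic subunit Pole averaged 14.5 ± 0.0853 FPKM in SCC2, 17.3 ± 0.43 FPKM in SCC1 and 14.3 ± 0.304 FPKM in LLC1, and was lower in SCC2 than in SCC1 by a log2 change of -0.24. Its partner Pole2 averaged 30.5 ± 0.782 FPKM in SCC2, 26.1 ± 0.236 FPKM in SCC1 and 25.5 ± 0.949 FPKM in LLC1, and was higher in SCC2 than in SCC1 by 0.22. Against LLC1, Pole passed in SCC1 (0.26) and Pole2 in SCC2 (0.25). Exons of Gm49384, a protein-coding gene on the same strand, overlap Pole2.

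Primase and polymerase alpha start each new stretch of DNA. The small primase subunit Prim1 averaged 33.5 ± 0.996 FPKM in SCC2, 28.6 ± 0.665 FPKM in SCC1 and 26.2 ± 1.4 FPKM in LLC1. The large primase subunit Prim2 averaged 12.8 ± 0.467 FPKM in SCC2, 12.6 ± 0.0317 FPKM in SCC1 and 10.1 ± 0.33 FPKM in LLC1. The catalytic subunit Pola1, on the X chromosome, averaged 20.02 ± 0.495 FPKM in SCC2, 20.2 ± 0.314 FPKM in SCC1 and 17.0 ± 0.337 FPKM in LLC1. These 3 genes were higher in each subclone, with changes of 0.34, 0.32 and 0.22 in SCC2 and 0.12, 0.30 and 0.24 in SCC1, though the SCC1 change of Prim1 did not pass after quantile normalization (adjusted p = 0.0779). With the median of the X chromosome removed, Pola1 did not pass in SCC2 (-0.0010, adjusted p = 0.977) or in SCC1 (0.07, adjusted p = 0.051). Pola2, the regulatory subunit of polymerase alpha, averaged 34.5 ± 1.33 FPKM in SCC2, 41.99 ± 0.421 FPKM in SCC1 and 36.8 ± 0.516 FPKM in LLC1, and was lower in SCC2 (-0.09) and higher in SCC1 (0.19) than in LLC1. The SCC2 call did not pass without SCC2 replicate 3 (-0.06, adjusted p = 0.0544).

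Pcna, the sliding clamp that holds polymerases on DNA, had 215, 223 and 218 FPKM in SCC2, 235, 231 and 228 FPKM in SCC1, and 199, 201 and 202 FPKM in LLC1. The 3 lines did not overlap, and the log2 change against LLC1 was 0.12 in SCC2 (SE 0.018, adjusted p = 8.47e-05) and 0.21 in SCC1 (adjusted p = 1.1e-06). Between SCC2 and SCC1 it was -0.08, and 0.06 with chromosome medians removed. Pcna has named pseudogenes, Pcna-ps1 and Pcna-ps2, whose reads could be shared with it. Of the 5 genes of the clamp loader, replication factor C, all but Rfc3 were called higher in SCC2 than in LLC1 and all but Rfc4 in SCC1. Among all tested genes, 34.7% were called higher in SCC2 and 39.2% in SCC1. The large subunit Rfc1 averaged 22.6 ± 0.297 FPKM in SCC2, 22.4 ± 0.575 FPKM in SCC1 and 19.7 ± 0.37 FPKM in LLC1. Among the small subunits, Rfc2 averaged 59.5 ± 0.725 FPKM in SCC2, 60.0 ± 1.67 FPKM in SCC1 and 53.9 ± 2.34 FPKM in LLC1. The changes of Rfc1 and Rfc2 lay between 0.14 and 0.19 in both comparisons with LLC1.

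Rfc5 averaged 31.2 ± 2.24 FPKM in SCC2, 29.6 ± 0.906 FPKM in SCC1 and 26.2 ± 0.225 FPKM in LLC1. Rfc3 averaged 19.5 ± 0.553 FPKM in SCC2, 22.9 ± 1.16 FPKM in SCC1 and 18.8 ± 0.552 FPKM in LLC1. Rfc4 averaged 32.2 ± 1.32 FPKM in SCC2, 29.1 ± 0.988 FPKM in SCC1 and 28.1 ± 0.969 FPKM in LLC1. The subclones therefore differed in the loader, with Rfc3 lower in SCC2 than in SCC1 (-0.22, adjusted p = 0.000249) and Rfc4 higher (0.14, adjusted p = 0.00386, and -0.16 once chromosome medians were removed). Rfc5 differed by 0.07, which passed only without SCC2 replicate 2 (0.13, adjusted p = 0.00297). Exons on the opposite strand overlap Rfc2 (Lat2), Rfc4 (Eif4a2) and Rfc5 (Wsb2).

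Replication protein A coats single-stranded DNA as a complex of 3 subunits, and its 3 transcripts moved in different directions. Rpa1, the large subunit, had 64.6, 65.1 and 65.9 FPKM in SCC2, 77.3, 78.2 and 77.1 FPKM in SCC1, and 62.0, 63.1 and 59.5 FPKM in LLC1. Rpa2 had 23.8, 25.5 and 25.1 FPKM in SCC2, 19.9, 23.1 and 21.6 FPKM in SCC1, and 26.0, 24.8 and 26.7 FPKM in LLC1. Rpa3 had 55.6, 55.3 and 55.4 FPKM in SCC2, 76.0, 74.9 and 69.3 FPKM in SCC1, and 61.5, 63.8 and 59.9 FPKM in LLC1. SCC1 thus stood above LLC1 for Rpa1 and Rpa3 and below it for Rpa2, and SCC2 stood below LLC1 for Rpa3, above it for Rpa1 and overlapped it for Rpa2. In SCC1 against LLC1 the changes were 0.33 for Rpa1 (SE 0.023, adjusted p = 1.64e-07), -0.25 for Rpa2 (SE 0.048, adjusted p = 0.000607) and 0.24 for Rpa3 (SE 0.033, adjusted p = 4.16e-05). In SCC2 against LLC1 they were 0.08 for Rpa1 (adjusted p = 0.00782), -0.06 for Rpa2 (adjusted p = 0.311) and -0.15 for Rpa3 (adjusted p = 0.00163). The call of Rpa1 in SCC2 did not pass after quantile normalization (0.04, adjusted p = 0.128), and the SCC1 fall of Rpa2, a chromosome 4 gene, became 0.08 once chromosome medians were removed. In that setting the SCC2 fall of Rpa3 was -0.05 and did not pass (adjusted p = 0.177).

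For joining of lagging-strand fragments, the flap nuclease Fen1 averaged 40.0 ± 0.58 FPKM in SCC2, 36.2 ± 0.597 FPKM in SCC1 and 32.4 ± 0.786 FPKM in LLC1. The ligase Lig1 averaged 46.1 ± 0.28 FPKM in SCC2, 52.3 ± 0.329 FPKM in SCC1 and 46.6 ± 1.13 FPKM in LLC1. Fen1 was higher in each subclone (0.30 in SCC2 and 0.15 in SCC1), and Lig1 was higher in SCC1 only (0.16), with -0.02 in SCC2 against LLC1 and -0.18 in SCC2 against SCC1 (adjusted p = 1.23e-05).

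Genes that supply deoxynucleotides were higher in SCC2 for 4 of 5 members and in SCC1 for 4 of 5, where Dut did not pass in SCC2 and Tk1 did not pass in SCC1. The background was 34.7% of all tested genes called higher in SCC2 and 39.2% in SCC1. Rrm2, the regulated subunit of ribonucleotide reductase, which makes deoxynucleotides, had 116 FPKM in each SCC2 library, 112, 109 and 111 FPKM in SCC1, and 93.8, 92.03 and 92.3 FPKM in LLC1. The lines did not overlap, and Rrm2 was higher than in LLC1 by 0.32 in SCC2 (SE 0.017, adjusted p = 1.84e-08) and by 0.26 in SCC1 (adjusted p = 1.05e-07). Its partner Rrm1 averaged 65.0 ± 0.727 FPKM in SCC2, 71.5 ± 0.979 FPKM in SCC1 and 58.4 ± 1.12 FPKM in LLC1, so that it was highest in SCC1 where Rrm2 was highest in SCC2. The Rrm2 to Rrm1 ratio, also chosen after the values were seen, was 1.76 to 1.81 in SCC2, 1.51 to 1.57 in SCC1 and 1.54 to 1.63 in LLC1. For this ratio SCC1 overlapped LLC1 (exact permutation p = 0.4).

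Tk1, the salvage enzyme thymidine kinase of S phase, had 93.4, 93.9 and 96.7 FPKM in SCC2, 72.2, 73.7 and 70.9 FPKM in SCC1, and 74.6, 72.0 and 74.5 FPKM in LLC1. SCC2 lay above every other library, and SCC1 overlapped LLC1. The change in SCC2 was 0.36 against LLC1 (SE 0.023, adjusted p = 9.36e-08) and 0.38 against SCC1 (adjusted p = 2.16e-08), while SCC1 against LLC1 gave -0.03, which did not pass. That last change passed after quantile normalization (-0.06, adjusted p = 0.0205) and with chromosome medians removed (-0.20). Exons of Afmid overlap Tk1 on the opposite strand.

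Tyms, which makes thymidylate anew, had 11.5, 11.9 and 11.3 FPKM in SCC2, 9.83, 9.62 and 9.29 FPKM in SCC1, and 8.66, 8.28 and 8.46 FPKM in LLC1. No lines overlapped, and the change against LLC1 was 0.41 in SCC2 (SE 0.034, adjusted p = 7.45e-07) and 0.16 in SCC1 (adjusted p = 0.00122). A named pseudogene, Tyms-ps, could share its reads. Dut, which removes dUTP from the pool, averaged 50.8 ± 2 FPKM in SCC2, 56 ± 0.956 FPKM in SCC1 and 51.3 ± 0.539 FPKM in LLC1, and was called higher in SCC1 (0.13) with -0.01 in SCC2 against LLC1. The SCC1 change of Dut with chromosome medians removed was 0.03 and did not pass (adjusted p = 0.455).

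The 2 members that encode subunits of chromatin assembly factor 1, which places histones on new DNA, moved apart in SCC2. Chaf1a, the large subunit, had 39.7, 40.3 and 39.2 FPKM in SCC2, 51.8, 52.9 and 53.4 FPKM in SCC1, and 43.2, 42.2 and 42.8 FPKM in LLC1. Chaf1b, the middle subunit, had 15.5, 15.9 and 15.2 FPKM in SCC2, 11.1, 12.1 and 11.4 FPKM in SCC1, and 11.2, 11.2 and 10.4 FPKM in LLC1. SCC2 was lowest for Chaf1a and highest for Chaf1b, without overlap with either other line. Against LLC1 the SCC2 changes were -0.10 for Chaf1a (SE 0.022, adjusted p = 0.00125) and 0.47 for Chaf1b (SE 0.04, adjusted p = 1.11e-06), and the SCC1 changes were 0.30 (adjusted p = 2.2e-07) and 0.07 (adjusted p = 0.151). The ratio of Chaf1a to Chaf1b, also chosen after the values were seen, was 2.54 to 2.59 in SCC2, 4.37 to 4.69 in SCC1 and 3.75 to 4.13 in LLC1. The exact permutation p was 0.1 for each pair of lines, and 0.109 adjusted over 12 ratio comparisons. With chromosome medians removed, the SCC2 change of Chaf1a against LLC1 was 0.02 and did not pass. That of Chaf1b was 0.26 (adjusted p = 0.000233). In SCC2 against SCC1, the changes in this setting were -0.22 for Chaf1a and 0.10 for Chaf1b (adjusted p = 0.0491). An exon of Ubxn6 on the opposite strand overlaps Chaf1a.

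Member changes went along with the chromosome a gene lies on. Over the 46 members, the change of a gene and the median change of all tested genes on its chromosome had a Pearson correlation of 0.65 in SCC1 against LLC1, 0.42 in SCC2 against LLC1 and 0.64 in SCC2 against SCC1, with Spearman values of 0.54, 0.51 and 0.58. Members on 1 chromosome share its median, so these are descriptions over 14 chromosomes. On chromosome 16, which holds Mcm4, Cdc45, Rfc4 and Chaf1b, the median tested gene changed by 0.21 in SCC2 and by -0.08 in SCC1, both against LLC1. On chromosome 4, with Orc1, Rpa2 and Ccne2, it changed by -0.04 in SCC2 and by -0.33 in SCC1. Ccne2 was higher in each subclone although its chromosome was not, with changes of 0.83 in SCC2 and 0.49 in SCC1 once chromosome medians were removed.

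With chromosome medians removed, 36 members were higher and 1 was lower in SCC1 than in LLC1, where 30.0% and 30.7% of tested genes were called higher and lower, and the lower one was Tk1. In SCC2 against LLC1, 23 were higher and 5 lower, where 29.3% and 29.6% of tested genes were. In SCC2 against SCC1, 12 were higher and 21 lower, where 33.2% and 33.7% were. The member medians became 0.13, 0.07 and -0.05. In SCC1 against LLC1 this setting also gave calls to Mcm4 (0.10), Rfc4 (0.13) and Chaf1b (0.16), all on chromosome 16, and in SCC2 against SCC1 to Orc1 (-0.29) and Pola1 (-0.07), while Rpa1 no longer passed there (-0.03). The copy number of these chromosomes was not measured, and its part in the changes was not tested.

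**Figure D3:**
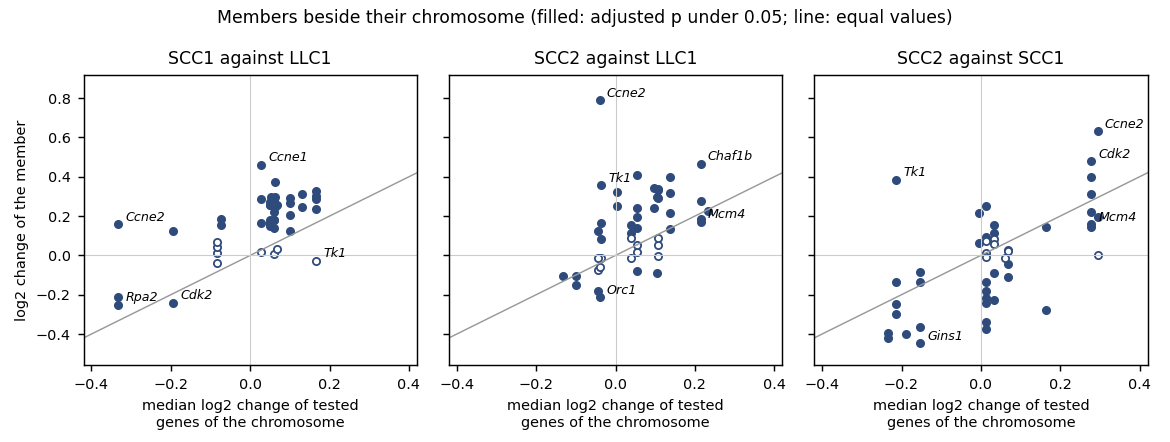
Log2 change of each member (vertical) against the median log2 change of all tested genes of its chromosome (horizontal) for the 3 comparisons, with filled points for an adjusted p under 0.05 and a line of equal values. In SCC1 against LLC1, 41 of the 46 points lie above the line, compared with 28 in SCC2 against LLC1 and 18 in SCC2 against SCC1.

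The 14 members with an E2F match in the promoter window did not move as a block. Of all tested genes, 39.2% were called higher and 30.9% lower in SCC1 against LLC1, 34.7% and 32.9% in SCC2 against LLC1, and 37.0% and 39.4% in SCC2 against SCC1. In SCC1 against LLC1, 10 of the 14 were higher and 2 lower, with a median change of 0.23, and among the 24 members with a window and no match 19 were higher and 1 lower, with a median of 0.18. In SCC2 against LLC1, 7 with a match were higher and 2 lower (median 0.08), and 16 without were higher and 4 lower (median 0.18). In SCC2 against SCC1, 3 with a match were higher and 8 lower, and 10 without were higher and 11 lower. Of the 3 genes whose promoters are printed, Mcm6 with 3 matches was higher in each subclone, Cdk2 with 1 was higher in SCC2 and lower in SCC1, and Mcm2 with none was lower in SCC2 and higher in SCC1. These 3 were picked because they moved differently, so their order by number of matches carries no weight. Mcm7, with a match, was lower in SCC2 (-0.08) and higher in SCC1 (0.26), as Mcm2 was. Orc1, also with a match, was lower in each subclone (-0.21 in both). The difference between genes with and without a match was not tested.

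Beyond the 46 genes, 82 further replication and G1/S genes were tested, of 83 listed. In SCC1 against LLC1, 45 were higher and 20 lower, with a median change of 0.10, where 39.2% of all tested genes were called higher and 30.9% lower. In SCC2 against LLC1, 37 were higher and 19 lower (median 0.08), where 34.7% and 32.9% were. In SCC2 against SCC1, 28 were higher and 33 lower (median -0.03), where 37.0% and 39.4% were. Their medians lay between those of the 46 genes and those of all tested genes in both comparisons with LLC1. The 36 mitosis and G2/M genes had medians of 0.05 in SCC1 and 0.03 in SCC2 against LLC1, with 16 higher and 10 lower in SCC1 and 15 higher and 11 lower in SCC2, shares close to those of all tested genes. The same shares are the background for each shorter list that follows.

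**Figure D4:**
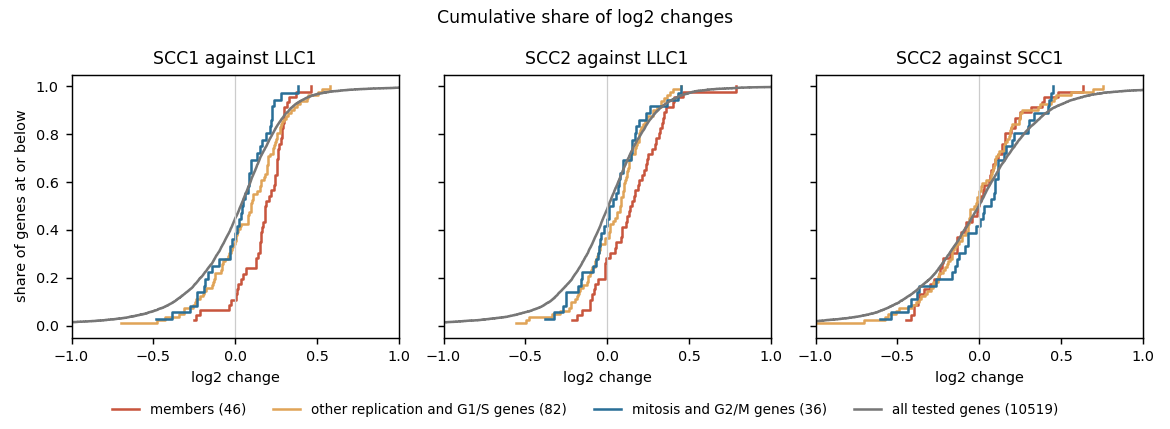
Cumulative share of genes (vertical) at or below each log2 change (horizontal) for the 46 members (red), 82 other replication and G1/S genes (orange), 36 mitosis and G2/M genes (blue) and all 10519 tested genes (grey), in the 3 comparisons. The red line is shifted to the right of the grey one in both comparisons with LLC1, with medians of 0.18 and 0.15 against 0.03 and 0.0075, and follows it in SCC2 against SCC1.

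Of 14 further licensing and origin firing genes, 6 were higher and 2 lower in each subclone than in LLC1, where 39.2% and 30.9% of all tested genes were in SCC1 and 34.7% and 32.9% in SCC2. Gmnn, the inhibitor of Cdt1, had the largest change in SCC2 (0.40, with 0.20 in SCC1), and the fork protein Donson was higher in SCC2 (0.33) with -0.04 in SCC1, a difference that passed (0.37, adjusted p = 0.000943). In SCC2 the chromosome medians were 0.35 for chromosome 13, which holds Gmnn, and 0.21 for chromosome 16, which holds Donson. The helicase paralogue Mcm8 (0.13 in SCC2, 0.28 in SCC1) and the Mcm-binding protein gene Mcmbp (0.23 and 0.08) were higher in each. Orc4, another subunit of the origin recognition complex, was higher in SCC1 (0.24) and had -0.04 in SCC2, which did not pass.

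Of 19 fork and polymerase accessory genes, 8 were higher and 4 lower in SCC2 and 10 higher and 4 lower in SCC1. The largest change was in Pole3, a small subunit of polymerase epsilon, which averaged 52.2 ± 0.411 FPKM in SCC2, 30.6 ± 0.846 FPKM in SCC1 and 50.2 ± 3.75 FPKM in LLC1, and fell in SCC1 by a log2 change of -0.70 (adjusted p = 5.31e-08). Pold4, a small subunit of polymerase delta, also fell in SCC1 (-0.48), while Pole4, the partner of Pole3, rose there (0.36). None of these 3 passed in SCC2 against LLC1 (0.06, 0.08 and 0.10). Rnaseh2b of the ribonuclease that removes RNA from DNA (0.38 in SCC2 and 0.13 in SCC1) and Dscc1 of an alternative clamp loader (0.23 and 0.30) were higher in each subclone. Topoisomerase Top1 was lower in SCC2 (-0.20) and higher in SCC1 (0.16). The SCC1 median of chromosome 4, which holds Pole3, was -0.33.

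Of 19 further nucleotide supply genes, 9 were higher and 4 lower in SCC2, and 14 were higher and 3 lower in SCC1. Cad, which starts pyrimidine synthesis, averaged 70.0 ± 1.43 FPKM in SCC2, 98.6 ± 1.58 FPKM in SCC1 and 69.0 ± 1.95 FPKM in LLC1, a change of 0.51 in SCC1 (adjusted p = 6.68e-09). The nucleoside diphosphate kinases Nme2 (0.44) and Nme1 (0.44) were also higher in SCC1, neither passed in SCC2, and reads of these near-identical neighbours may be hard to assign. Umps, which completes pyrimidine synthesis, was higher in each subclone (0.24 in both), and the median of its chromosome 16 was 0.21 in SCC2 and -0.08 in SCC1. Samhd1, which degrades deoxynucleotides, went opposite ways, with -0.29 in SCC2 and 0.29 in SCC1, as did Rrm2b, the p53-regulated subunit of ribonucleotide reductase (-0.24 and 0.32), and Shmt1 of folate metabolism (-0.12 and 0.39). Chromosome 15, which holds Rrm2b, had medians of -0.26 in SCC2 and 0.16 in SCC1.

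Of 20 E2F, RB and G1/S control genes, 9 were higher and 7 lower in each subclone, which is near the shares of all tested genes (34.7% and 32.9% in SCC2, 39.2% and 30.9% in SCC1). Rb1, the retinoblastoma brake on E2F, averaged 3.02 ± 0.249 FPKM in SCC2, 7.20 ± 0.608 FPKM in SCC1 and 4.67 ± 0.3 FPKM in LLC1, which gave a change of -1.03 in SCC2 against SCC1 (adjusted p = 3.59e-08). Cdkn1a, the p21 inhibitor of Cdk2, averaged 105.5 ± 0.817 FPKM in SCC2, 173 ± 4.23 FPKM in SCC1 and 115 ± 4.4 FPKM in LLC1, a change of -0.71 in SCC2 against SCC1 (adjusted p = 4.97e-10). Both brakes were thus lower in SCC2 and higher in SCC1 than in LLC1. Cdkn1b, Rbl1 and Rbl2 on the same list did not share this order. Cdkn1b was lower in each subclone (-0.34 in SCC2 and -0.18 in SCC1), Rbl2 was higher in each (0.08 and 0.15), and Rbl1 passed in neither. The repressor E2f7 was higher in SCC2 (0.45) and lower in SCC1 (-0.24). Tfdp2 (-0.56 and -0.43), a partner of E2F proteins, and E2f2 (-0.48 and -0.20) were lower in each. E2f1 (0.17 in SCC2 and 0.28 in SCC1), E2f3 (0.34 and 0.10), E2f4 (0.17 and 0.08) and Tfdp1 (0.30 and 0.20) were called higher in each. E2f6 was higher in SCC2 (0.14) and lower in SCC1 (-0.21), E2f8 was lower in SCC2 only (-0.15), and E2f5 passed in neither. The SCC1 chromosome medians were -0.19 for chromosome 10 (E2f7), -0.19 for chromosome 9 (Tfdp2) and -0.33 for chromosome 4 (E2f2). The SCC2 medians were -0.13 for chromosome 17 (Cdkn1a) and 0.35 for chromosome 13 (E2f3).

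Of 10 genes for chromatin and methylation at the fork, 5 were higher and 2 lower in SCC2, and 6 were higher and 4 lower in SCC1. The histone chaperone Rbbp4, which is also the small subunit of chromatin assembly factor 1, was lower in each subclone (-0.10 in SCC2 and -0.35 in SCC1), as was the maintenance methyltransferase Dnmt1 (-0.16 and -0.26). The chaperone Asf1a was higher in SCC2 (0.28) and lower in SCC1 (-0.19), and its paralogue Asf1b was higher in each (0.19 and 0.18). Of a pair of fork repair partners, Mms22l was higher in each subclone (0.28 and 0.10), and Tonsl was higher in SCC1 (0.23) and had -0.09 in SCC2, which did not pass. Several of these changes were about as large as the median of the chromosome. Those medians were -0.33 in SCC1 for chromosome 4 (Rbbp4), -0.16 in SCC2 and -0.19 in SCC1 for chromosome 9 (Dnmt1), and -0.19 in SCC1 for chromosome 10 (Asf1a).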

How the data were processed

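Gene expression was measured by RNA sequencing in 9 libraries, 3 each of SCC2, SCC1 and LLC1. The authors deposited 1 table of FPKM values per gene and library. Reads were trimmed with Trimmomatic and mapped with hisat2, and FPKM values were computed with cufflinks, per the series' design text, and the submitters' processing notes name GRCm38 and mm10. The labels and the design text name different RNA and library kits, so whether libraries kept strand is not settled, and reads of overlapping genes on opposite strands may be mixed. Besides the overlaps named above, opposite-strand exons overlap Orc1 (Gm12743), Orc6 (Vps35), Cdc45 (Ufd1), Gins2 (Gse1), Pole (Gm15792), Fen1 (Gm10143 and Tmem258) and Lig1 (Zswim9). On the same strand, the miRNA gene Gm47300 overlaps Rpa1. FPKM is relative to the total of a library, and log2(FPKM + 1) understates changes of low genes. For 12270 of 12270 genes above 0 in every library, FPKM ratios between libraries gave whole fragments within 0.001 fragments, as FPKM made from whole counts would, which the cufflinks description does not explain.

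Lines were compared with limma 3.58.1 in R 4.3.3, using a trended and robust eBayes step, on log2(FPKM + 1) in 1 fit of all 9 libraries, over 10519 genes with at least 1 FPKM in at least 3 libraries, which all 46 members passed. P-values are two-sided, adjusted by Benjamini-Hochberg over all tested genes, and called under 0.05. The labels do not tie the 3 libraries per line to different cultures, and the p-values therefore reflect a spread that may be technical only. Tables and figures used Python 3.11.15 with pandas 2.3.3, scipy 1.17.1 and matplotlib 3.10.9. Scripts were tested on simulated data. The members and gene lists were chosen with earlier results of these data known. Values of every library are given for Pcna, Ccne1, Ccne2, Cdk2, Rrm2 and, in each comparison, the 5 members with the largest called change in each direction, and in other lists the 3 largest called changes are named, except for a gene that is not reported here. Alternatives were a pseudocount of 0.1, other filters, scalings and variance models, limma-voom on recovered fragments, only the lines compared, a replicate block, removal of chromosome medians and leaving out each library. Chromosomes and promoters came from RefSeq (GRCm38.p6) by symbol, and overlapping exons from GENCODE M21. Protein sequences were not used here.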

Additional observations from a re-analysis of the deposited data

Results flagged for a closer look

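There were 7 members that moved in opposite directions in the subclones, each change against LLC1 passing on its own and the difference between SCC2 and SCC1 passing as well. The share of all tested genes with this pattern was not computed, so the count cannot be read as particular to the members. Calls were common, with 70.1% of tested genes called in SCC1 against LLC1, 67.6% in SCC2 against LLC1 and 76.3% in SCC2 against SCC1. Cdk2 was higher in SCC2 and lower in SCC1 than in LLC1, and the difference, SCC2 minus SCC1 on the log2 scale, was 0.48. The other 6 were lower in SCC2 and higher in SCC1. Their differences were -0.42 for the helicase subunit Mcm2, -0.34 for the helicase subunit Mcm7, -0.45 for Gins1, -0.28 for the polymerase alpha subunit Pola2, -0.40 for the single-strand binding subunit Rpa3 and -0.40 for the chromatin assembly subunit Chaf1a. Both changes are measured from the same LLC1 libraries. With chromosome medians removed, Mcm7 (-0.14 in SCC2 and 0.21 in SCC1), Gins1 (-0.14 and 0.16) and Pola2 (-0.20 and 0.26) were still called in opposite directions, whereas Mcm2, Rpa3 and Chaf1a were not called in SCC2 and Cdk2 was not called in SCC1. The differences between SCC2 and SCC1 were then 0.20 for Cdk2, -0.18 for Mcm2, -0.35 for Mcm7 and -0.30 for Gins1. They were -0.46 for Pola2, -0.15 for Rpa3 and -0.22 for Chaf1a.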

How the results depend on the processing

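Over 19 alternatives the 138 member changes gave 2619 values, of which 2562 kept their side of the threshold without reversing a call, 33 of them changing sign while not called, 24 lost a call, 18 gained one and 15, called in at least 1 of the settings compared, changed sign. Every reversal came from removing chromosome medians, which by its construction takes out shifts shared by a chromosome. In SCC1 against LLC1 these were Orc1 (0.12) and Rpa2 (0.079). In SCC2 against LLC1 they were Mcm4 (-0.039), Pola1 (-0.0010), Rfc4 (-0.024) and Chaf1a (0.024). In SCC2 against SCC1 they were Pcna (0.064), Mcm4 (-0.14), Orc1 (-0.29), Pold2 (0.080), Prim1 (-0.063), Rfc4 (-0.16), Rpa2 (-0.098), Fen1 (-0.037) and Dut (0.0089). The same setting changed the count of members lower in SCC1 than in LLC1 to 1, and of other replication and G1/S genes lower there to 13, and the remaining counts stayed within 1.5 times under all alternatives. Orc1 has no value under the filter of 5 FPKM. Replicate numbers did not pair the libraries, since deviations of same-numbered libraries correlated between -0.068 and 0.089. With a replicate block, member counts higher and lower were 35 and 3 in SCC1, 28 and 7 in SCC2, and 16 and 20 in SCC2 against SCC1, where Mcm6 lost its call (adjusted p = 0.0757). With 3 libraries a line, exact tests of single ratios cannot pass.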
